A study of Homo sapiens with 2 samples.

Results

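The cells described here come from a culture of naive human embryonic stem cells and have very few mitochondrial transcripts. They carry RNA of the secreted cytokine gene IL24, the matrix glycoprotein gene ECM1 and 4 companion genes. They were selected on measured values: a barcode needed at least 1000 detected genes, a share of mitochondrially encoded unique molecular identifiers (UMIs, the counted RNA molecules) below 2%, at least 1 UMI in 3 or more of IL24, ECM1, TM4SF19, PTGES, FLNC and IGFBP6, and no UMI of ZSCAN4, TPRX1 and DUXB, genes of the 8-cell (8C) stage embryo. This rule found 840 cells, called members below, among 4388 low-mitochondrial cells and 16639 kept cells with at least 1000 genes. Comparison cells were the 1590 low-mitochondrial cells with none of the 6 genes and no UMI of the 3 8C genes. Ordinary cells were the 11249 kept cells with 2% to 20% mitochondrial UMIs.

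H9 is an established line of human embryonic stem cells from a single embryo, kept here in a naive state in RSeT medium. Every cell received 10 nM DZNep, an inhibitor of methylation reactions that lowers EZH2 activity, and 5 nM trichostatin A (TSA), an inhibitor of histone deacetylases. The ASO-L1 library came from cells given 25 nM of a fluorescein-labelled (6-FAM) oligonucleotide antisense to LINE1 RNA, and the SO-L1 library from cells given the same amount of the sense control. In both, 0.7 µM trans-ISRIB (a blocker of the integrated stress response), 5 µM emricasan (a blocker of caspases) and 10 µM Y-27632 were present until 24 h, and 100000 fluorescein-positive cells were sorted at 48 h for 3′ single-cell RNA sequencing. Each oligonucleotide had 1 library, so no difference below has a replicate check or a p-value, and intervals are exact 95% intervals that cover the counting of UMIs only.

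IL24 belongs to the IL-10 family of cytokines, is made by activated immune cells and stressed keratinocytes, and signals through receptors that contain IL20RB. ECM1 is a secreted protein of skin basement membrane, PTGES makes prostaglandin E2, and FLNC is a filamin that crosslinks actin and is best known from muscle. TM4SF19 is a membrane protein of the L6 group, and IGFBP6 binds insulin-like growth factor 2 in preference to factor 1. The transcription factor family AP-1, built from FOS and JUN proteins, is known to drive many genes of stressed and wounded epithelium, whereas POU5F1, SOX2 and NANOG hold the pluripotent state.

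Depth and barcode sharing set limits on the comparison. Members had a median of 54050 UMIs in ASO-L1 and 38323 in SO-L1, against 21396 and 30378.5 in comparison cells, so calls were also made on members and comparison cells paired for UMI number. The median mitochondrial share was 0.114% in ASO-L1 members and 0.101% in SO-L1 members, against 0.225% and 0.176% in comparison cells. Of the 755 ASO-L1 members, 544 (72.1%) had a barcode that also stood in the SO-L1 library. Of the 85 SO-L1 members, 5 (5.88%) had a barcode that also stood in ASO-L1. Over all kept cells these shares were 55.3% in ASO-L1 and 15.2% in SO-L1. Without shared barcodes, 211 of the 755 members and 300 of the 504 comparison cells of ASO-L1 remained. The copy in the other library held a median of 1.35% of the ASO-L1 member's UMIs and 0.992% of the SO-L1 member's UMIs, and of the SO-L1 barcodes under 1000 genes, 83.4% were also in ASO-L1. The copy was the larger one for 1 ASO-L1 member (50451 UMIs, against 36726 in the member) and for 1 SO-L1 member (131003 UMIs, against 1845), and 1 barcode was a member in both libraries. What placed shared barcodes in both libraries was not tested.

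Members were far more frequent after the antisense oligonucleotide. In ASO-L1, 755 of 2531 low-mitochondrial cells were members (29.8%, exact binomial interval 28.1 to 31.7), against 85 of 1857 in SO-L1 (4.58%, 3.67 to 5.63), a ratio of 6.52. Low-mitochondrial cells themselves made up similar shares of kept cells, 26.3% in ASO-L1 and 26.4% in SO-L1. Comparison cells showed the opposite order, with 19.9% of the low-mitochondrial cells of ASO-L1 and 58.5% of those of SO-L1. Without barcodes present in both libraries the member share was 20.2% in ASO-L1 and 4.76% in SO-L1. After each cell was thinned to 2500 UMIs it was 7.8% in ASO-L1 and 0.34% in SO-L1, still higher in ASO-L1.

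Among low-mitochondrial cells without an 8C UMI, the 2 libraries differed in how many of the 6 genes a cell held. In ASO-L1, the cells with 0 to 6 of the genes numbered 504, 432, 260, 182, 216, 201 and 156, so that 156 cells held all 6. In SO-L1 they numbered 1086, 444, 139, 47, 25, 11 and 2, a steady decline. Just outside the limit, 260 ASO-L1 and 139 SO-L1 cells held 2 genes, and just inside it 182 and 47 held 3. At the mitochondrial limit, 7 of 84 ASO-L1 cells with 1.5% to 2% met the rest of the rule, against 11 of 70 cells with 2% to 2.5% that lay outside it. In SO-L1 these were 2 of 51 cells inside and 0 of 36 outside.

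**Figure D1:**
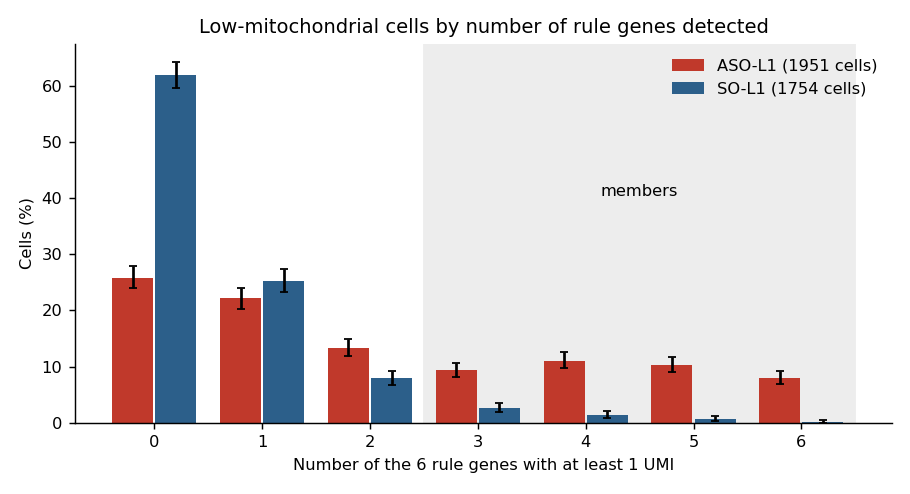
Bars give the percent of low-mitochondrial cells without an 8C gene UMI (y axis) that held 0 to 6 of the rule genes (x axis), in ASO-L1 (left bar) and SO-L1 (right bar), with exact 95% binomial intervals. The shaded range marks members; 8% of ASO-L1 cells and 0.114% of SO-L1 cells held all 6 genes.

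An 8C UMI was found more often beside the 6 genes than away from them. In ASO-L1, 329 of the 1084 low-mitochondrial cells with 3 or more of the 6 genes (30.4%) held one and were left out by the rule, against 12.7% of the low-mitochondrial cells with none of the 6. In SO-L1 the shares were 15% of 100 cells and 3.38%. Depth moved with this: in ASO-L1, cells with an 8C UMI had a median of 62493 UMIs with 3 or more of the 6 genes and 24411 with none, and its part in the shares was not tested. In ordinary cells, which are deeper, 3 or more of the 6 genes were seen in 467 of 6553 cells in ASO-L1 (7.13%, 6.52 to 7.78) and in 18 of 4696 in SO-L1 (0.383%, 0.227 to 0.605).

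The levels of the 6 rule genes chose the members and are given as a description, in CPM, the UMIs of a gene per 1000000 non-mitochondrial UMIs of a class of cells. The secreted proteins come first. IL24 (chromosome 1, 206897443 to 206904139, + strand, GENCODE 29 on GRCh38) had 172 CPM (168 to 176) in ASO-L1 members and 73.2 (64.01 to 83.3) in SO-L1 members, against 5.73 and 0.0719 in the ordinary cells of those libraries. ECM1 (chromosome 1, 150508062 to 150513789, + strand) had 114 CPM (111 to 117) in ASO-L1 members and 11.8 (8.33 to 16.3) in SO-L1 members, against 6.73 and 0.714 in the ordinary cells of those libraries. IL24 and ECM1 were thus detected in 57.9% and 83.05% of ASO-L1 members, but in 32.9% and 29.4% of SO-L1 members, so that each was missing from most SO-L1 members and the name of the class describes ASO-L1 better. IGFBP6 (chromosome 12, 53097436 to 53102345, + strand) had 121 CPM (118 to 125) in ASO-L1 members and 141 (128 to 155) in SO-L1 members, against 5.6 and 1.73 in the ordinary cells of those libraries. Its UMIs were concentrated, with 73.1% of those in ASO-L1 members in the 10% of members with the most IGFBP6 UMIs.

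Among the enzyme, membrane and cytoskeletal genes, FLNC was the most widely detected. FLNC (chromosome 7, 128830377 to 128859274, + strand) had 324 CPM (319 to 329.9) in ASO-L1 members and 151 (137 to 165) in SO-L1 members, against 22.5 and 3.54 in the ordinary cells of those libraries. TM4SF19 (chromosome 3, 196319342 to 196338503, − strand) had 159 CPM (155 to 163) in ASO-L1 members and 119 (107 to 131) in SO-L1 members, against 6.89 and 0.519 in the ordinary cells of those libraries. PTGES (chromosome 9, 129738331 to 129753047, − strand) had 57.1 CPM (54.9 to 59.5) in ASO-L1 members and 30.7 (24.9 to 37.5) in SO-L1 members, against 3.51 and 1.27 in the ordinary cells of those libraries. FLNC was detected in 96.03% of ASO-L1 and 90.6% of SO-L1 members, TM4SF19 in 84.8% and 81.2%, and PTGES in 60.4% and 64.7%. In ordinary cells, at medians of 56296 and 45154 UMIs, FLNC was detected in 30.4% of ASO-L1 and 11.99% of SO-L1 cells, and IL24 in 5.2% and 0.256%. The 6 genes also reached barcodes under 1000 genes that were in ASO-L1 alone, where FLNC stood at 123 CPM and IL24 at 24.7, while IL24 had 0 UMIs in such barcodes of SO-L1.

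**Figure D2:**
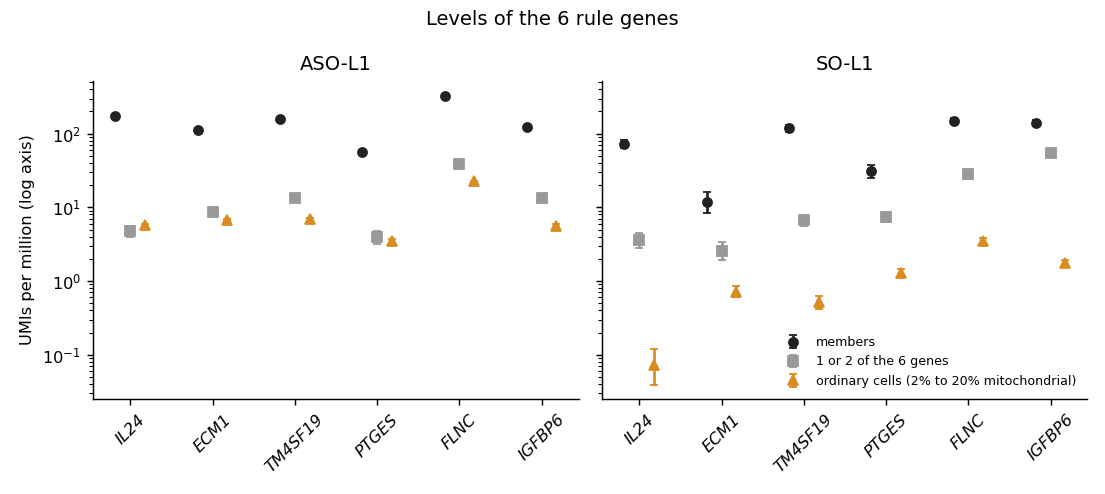
Points give the level of each rule gene (y axis, CPM on a log scale) in members, in low-mitochondrial cells with 1 or 2 of the genes and in ordinary cells, in ASO-L1 (left) and SO-L1 (right), with exact 95% Poisson intervals. In members the levels run from 57.1 to 324 CPM in ASO-L1 and from 11.8 to 151 CPM in SO-L1, above the ordinary cells for each gene.

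Each gene was also read in cells chosen by 3 or more of the other 5, against cells with none of those 5. The 6 genes entered the rule with results of these cells known, so these ratios restate that choice and support nothing. IL24 then stood at 166 CPM against 2.39 in ASO-L1, a ratio of 69.4 (50.3 to 98.7), and 37.5 against 0.885 in SO-L1, a ratio of 42.3 (27.4 to 67.4). TM4SF19 stood at 167 CPM against 4.77 in ASO-L1, a ratio of 34.95 (28.0 to 44.2), and 125 against 1.22 in SO-L1, a ratio of 103 (72.6 to 149). The order of the genes differed between libraries: IGFBP6, at 13.8, had the lowest ratio in ASO-L1, and ECM1, at 9.83, the lowest in SO-L1. PTGES had ratios of 18.8 in ASO-L1 and 10.3 in SO-L1, FLNC 19.6 and 16.8, and ECM1 in ASO-L1 28.4. The choice by co-detection favours deep cells, and in cells paired for UMIs the ASO-L1 ratios ran from 14.6 to 106.

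The 250 bases before the RefSeq start of each (GRCh38.p14) were searched for the AP-1 element TGAGTCA or TGACTCA, read on both strands. The element was found before ECM1, starting 78 bases ahead of the start, and before TM4SF19, starting 214 bases ahead, and not in this window of IL24, PTGES, FLNC and IGFBP6. The 2 stretches are shown because they carry that element, which stands in capitals, 5′ to 3′ in the direction of the gene; the ECM1 stretch is chr1:150507859-150508108 on the + strand and the TM4SF19 stretch chr3:196338389-196338638 on the − strand.
ECM1: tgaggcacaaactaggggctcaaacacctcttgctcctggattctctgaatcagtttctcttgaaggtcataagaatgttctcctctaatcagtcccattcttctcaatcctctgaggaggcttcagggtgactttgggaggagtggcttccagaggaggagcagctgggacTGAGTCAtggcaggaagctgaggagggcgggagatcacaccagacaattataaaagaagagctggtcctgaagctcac
TM4SF19: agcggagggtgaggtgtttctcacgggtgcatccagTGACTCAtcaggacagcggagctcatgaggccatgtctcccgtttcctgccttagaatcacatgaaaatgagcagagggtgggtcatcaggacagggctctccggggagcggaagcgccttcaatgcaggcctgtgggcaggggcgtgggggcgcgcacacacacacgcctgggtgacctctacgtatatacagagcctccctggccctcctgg
Over windows that also took in 50 bases after the start, the element was in 41 of 456 promoters of genes called higher in both libraries (8.99%), in 9 of 390 of those called lower in both (2.31%), in 2.91% of the 10208 of genes tested in both, and in 4.92% of all 27305 promoters. It was also before CLDN4 and EMP1, named below. In the same windows and on both strands, 2 other motifs were searched. The TEAD motif GGAATG was in 12.1% of the promoters of genes higher in both libraries, 12.1% of those lower in both, 10.7% of those tested and 14.05% of all. The TATA motif TATAAA was in 10.5% of those higher in both, 8.21% of those lower in both, 5.45% of those tested and 11.95% of all. Beside the tested genes, the genes higher in both libraries thus had the TATA motif more often (10.5% against 5.45%). They had the TEAD motif slightly more often (12.1% against 10.7%). Beside all promoters, both motifs were somewhat less frequent in the genes higher in both libraries. A match of letters is a description and does not show binding.

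Beyond the rule genes, the members of both libraries differed from comparison cells in epithelial, cytoskeletal and stress genes on one side and in pluripotency genes on the other. A gene was called when its summed level differed at least 2-fold, the interval of the ratio lay beyond 1 and the gene had at least 100 UMIs over both classes. In ASO-L1, 1578 of 15379 genes tested (10.3%) were higher and 2682 (17.4%) lower in members, with a median log2 ratio of −0.07 over all of them. In SO-L1, 1278 of 13927 (9.18%) were higher and 841 (6.04%) lower, with a median of 0.02. Among the 13614 genes tested in both libraries, 626 were called higher in both, 63.9% of ASO-L1's higher genes and 50.04% of SO-L1's. Another 617 were lower in both, 23.6% of ASO-L1's lower genes and 79.5% of SO-L1's, and 33 were called in opposite directions. In cells paired for UMIs (325 a class in ASO-L1 and 85 in SO-L1) the shares were 11% higher and 16.5% lower in ASO-L1, and 9.5% and 5.21% in SO-L1. Without barcodes present in both libraries, 636 genes were higher and 1434 lower in ASO-L1, among 10292 tested. The classes were chosen in these same cells, so these shares and the values below describe them and are no test. Counts over sums treat cells of a class as 1 pool, and a gene held by few cells can pass.

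The genes named here had the largest bounds of difference in both libraries. CCR7, a chemokine receptor best known from lymphocytes and dendritic cells, had 227 CPM in ASO-L1 members against 7.67 in ASO-L1 comparison cells, and 97.5 CPM in SO-L1 members against 2.01 in SO-L1 comparison cells, or 29.6-fold in ASO-L1 (24.6 to 35.9) and 48.4-fold in SO-L1 (36.7 to 64.9). It was detected in 81.7% of ASO-L1 and 43.5% of SO-L1 members, against 10.9% and 2.21% of comparison cells. STMN4, a stathmin that destabilises microtubules, had 375 CPM in ASO-L1 members against 15.7 in ASO-L1 comparison cells, and 186 CPM in SO-L1 members against 4.39 in SO-L1 comparison cells. S100A6, a small calcium-binding protein, was among the most abundant, with 1643 CPM in ASO-L1 members against 88.2 in ASO-L1 comparison cells, and 2011 CPM in SO-L1 members against 89.9 in SO-L1 comparison cells, or 18.6-fold in ASO-L1 (17.6 to 19.7) and 22.4-fold in SO-L1 (21.4 to 23.4). Its level varied among members, with lower-quartile, median and upper-quartile values per cell of 94.04, 467 and 2058 CPM in ASO-L1 members and 306, 915 and 2383 in SO-L1 members, against 0, 35.9 and 128 in ASO-L1 comparison cells. SFN, the epithelial 14-3-3 sigma protein and a p53 target, had 707 CPM in ASO-L1 members against 38.3 in ASO-L1 comparison cells, and 684 CPM in SO-L1 members against 23.8 in SO-L1 comparison cells. It was present in 96.6% and 95.3% of members.

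The other named genes with higher levels fall into a few groups. CLDN4 (a tight junction claudin), KRT17 (a keratin of stressed epithelium), S100A14 and EMP1 (an epithelial membrane protein) are epithelial. CLDN4 differed 21.5-fold in ASO-L1 (16.3 to 28.9) and 24.1-fold in SO-L1 (19.3 to 30.3), KRT17 17.9-fold in ASO-L1 (14.2 to 22.95) and 41.8-fold in SO-L1 (33.0 to 53.4) and EMP1 35.4-fold in ASO-L1 (19.1 to 73.97) and 80.3-fold in SO-L1 (55.2 to 121). EMP1 was held by 20.4% of ASO-L1 and 35.3% of SO-L1 members. Of the small heat shock proteins, CRYAB differed 20.3-fold in ASO-L1 and 14.9-fold in SO-L1, while the ratio of HSPB8 was 16.4 in ASO-L1 and 22.9 in SO-L1. RRAD, a Ras-related GTPase, had 185 CPM in ASO-L1 members against 9.88 in ASO-L1 comparison cells, and 176 CPM in SO-L1 members against 7.22 in SO-L1 comparison cells. AHNAK2, a giant scaffold protein, differed 28.7-fold in ASO-L1 and 32.4-fold in SO-L1, the sodium pump regulator FXYD4 19.2-fold in ASO-L1 and 16.5-fold in SO-L1, the neuroendocrine protein RESP18 20.7-fold in ASO-L1 and 36.8-fold in SO-L1, and the long non-coding RNA APCDD1L-DT 36.2-fold in ASO-L1 and 24.1-fold in SO-L1. As log2 ratios, the 15 ran from 4.03 to 5.18 in ASO-L1 and 3.90 to 6.33 in SO-L1. In cells paired for UMIs they ran from 3.88 to 5.75 in ASO-L1 and, for the 13 with a value, 3.45 to 5.68 in SO-L1. Against all other low-mitochondrial cells, those with 1 or 2 of the 6 genes included, they were smaller, 2.36 to 3.82 in ASO-L1 and 1.52 to 4.69 in SO-L1. In ASO-L1 they were 2.17 to 4.97 without barcodes present in both libraries and 1.69 to 4.40 in thinned cells. The lowest of the values against all other cells was that of KRT17 in SO-L1, 1.52: cells with 2 of the 6 genes there stood at 380.0 CPM, above the members' 119.8. In ASO-L1 KRT17 was at 2.17 without shared barcodes and 1.95 in thinned cells, S100A6 at 2.36 and CCR7 at 3.30 against all other low-mitochondrial cells, and SFN at 2.60 without shared barcodes.

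The genes named as lower included genes best known from neurons and from growth factor signalling. AASS, the first enzyme of lysine breakdown, had 31.9 CPM in ASO-L1 members against 315 in ASO-L1 comparison cells, and 48.3 CPM in SO-L1 members against 323 in SO-L1 comparison cells, or 0.101 of the comparison level in ASO-L1 (0.0951 to 0.107) and 0.15 in SO-L1 (0.127 to 0.176). SYN3, a synapsin, had 22.6 CPM in ASO-L1 members against 236 in ASO-L1 comparison cells, and 99.1 CPM in SO-L1 members against 594 in SO-L1 comparison cells. MIR302CHG, the host of the miR-302 cluster of pluripotent cells, had 51.7 CPM in ASO-L1 members against 682 in ASO-L1 comparison cells, and 33.2 CPM in SO-L1 members against 215 in SO-L1 comparison cells. PDGFRA, a growth factor receptor, stood at 0.104 of the comparison level in ASO-L1 (0.0889 to 0.121) and 0.109 in SO-L1 (0.0643 to 0.173), HHIP, a hedgehog-binding protein, at 0.117 in ASO-L1 and 0.0858 in SO-L1, and MYB, a transcription factor, at 0.0898 in ASO-L1 and 0.0579 in SO-L1. KCND2, a potassium channel, had the lowest ratio in ASO-L1, 0.0392 (0.0324 to 0.047), against 0.155 in SO-L1 (0.113 to 0.208). SLC24A2, TOX3, NLGN1, PREX2, LRRN1, METTL7A, PTPRZ1 and SYT6 ranged between 0.0641 and 0.16 over both libraries.

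Keratins and other genes of stratified epithelium were among the lists with the highest medians. Within a list a gene was measured from 50 UMIs over both classes and called by the same fold and interval, and genes of the rule were left out. A gene near 0 in comparison cells could pass this limit through members alone, as KRT6A did in ASO-L1. Counts and medians of lists with such genes therefore follow in part from the limit. Of a list of cornified envelope and stress keratin genes, 7 of 9 measured genes were higher and 0 lower in ASO-L1 (median log2 ratio 4.16), and 3 of 5 were higher and 0 lower in SO-L1 (4.84). Against all other low-mitochondrial cells the SO-L1 median was 1.31, and paired for UMIs 2.82. In ASO-L1 it was 1.95 in thinned cells and 2.39 without barcodes present in both libraries. KRT16, induced with KRT17 in wounded skin, had 49.8 CPM in ASO-L1 members against 0.269 in ASO-L1 comparison cells, and 44.7 CPM in SO-L1 members against 0.956 in SO-L1 comparison cells. KRT75 had 27.8 CPM in ASO-L1 members against 0.202 in ASO-L1 comparison cells, and 3.2 CPM in SO-L1 members against 0.132 in SO-L1 comparison cells, and was held by 31.9% of ASO-L1 and 7.06% of SO-L1 members. KRT6A had 225 UMIs in 3.44% of ASO-L1 members and 0 in comparison cells, at least 26.6-fold higher against a floor of 3 UMIs in the class, and 0 UMIs in both classes of SO-L1. IVL, SPRR1A, KRT1 and PI3, also of this list, had 0 UMIs in members of both libraries. They were chosen after their values were seen and do not speak for the rest of the list. Of the basal keratinocyte list, 6 of 8 measured genes were higher and 0 lower in ASO-L1 (median log2 ratio 2.49), and 4 of 6 were higher and 0 lower in SO-L1 (2.69). Over all settings tried, the median lay between 1.51 and 3.06 in ASO-L1 and between 1.98 and 4.8 in SO-L1. LAMB3, a chain of laminin-332, had 65.4 CPM in ASO-L1 members against 5.18 in ASO-L1 comparison cells, and 36.1 CPM in SO-L1 members against 1.91 in SO-L1 comparison cells. TP63, the defining factor of that cell type, had 12 UMIs in ASO-L1 members and 10 in SO-L1 members. These came from 41928374 non-mitochondrial UMIs in ASO-L1 members and 3129025 in SO-L1 members, so the level of TP63 was higher in SO-L1 members.

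Calcium-binding S100 genes were mostly higher, and fewer annexins were. In the S100 list, 8 of 10 measured genes were higher and 0 lower in ASO-L1 (median log2 ratio 3.03), and 8 of 8 were higher and 0 lower in SO-L1 (3.25). In ASO-L1 this median was 1.84 against all other low-mitochondrial cells, 2.20 without barcodes present in both libraries and 0.98 in thinned cells. S100A4 differed 8.31-fold in ASO-L1 (7.42 to 9.35) and 12.1-fold in SO-L1 (10.5 to 13.8) and S100A16 8.04-fold in ASO-L1 (7.02 to 9.25) and 10.96-fold in SO-L1 (10.1 to 11.9). S100A10 and S100A11 were below the 2-fold limit in ASO-L1, at 1.89 and 1.94, and above it in SO-L1, at 2.77 and 2.35. For the annexins, which bind membranes in the presence of calcium, 3 of 8 measured genes were higher and 1 lower in ASO-L1 (median log2 ratio 0.85), and 3 of 8 were higher and 0 lower in SO-L1 (0.55). ANXA1, an inhibitor of inflammation, had 696 CPM in ASO-L1 members against 60.5 in ASO-L1 comparison cells, and 794 CPM in SO-L1 members against 15.2 in SO-L1 comparison cells, or 11.5-fold in ASO-L1 (10.8 to 12.3) and 52.1-fold in SO-L1 (47.2 to 57.7). ANXA2 differed 3.63-fold in ASO-L1 and 3.32-fold in SO-L1, and ANXA6 was at 0.178 in ASO-L1 and 0.68 in SO-L1 of the comparison level.

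Actin crosslinkers, adhesion genes and contractile genes changed in part. Of the list of actin crosslinkers and focal adhesion genes, without FLNC, 11 of 24 measured genes were higher and 2 lower in ASO-L1 (median log2 ratio 0.83), and 8 of 24 were higher and 0 lower in SO-L1 (0.90). The paralog FLNA was not called, at 1.74 in ASO-L1 and 0.939 in SO-L1. The laminin chain LAMA3 differed 8.06-fold in ASO-L1 and 10.9-fold in SO-L1, the LIM protein TES 4.42-fold in ASO-L1 and 6.19-fold in SO-L1, the integrin chain ITGA5 3.65-fold in ASO-L1 and 3.26-fold in SO-L1 and non-muscle myosin MYH9 3.15-fold in ASO-L1 and 2.09-fold in SO-L1. ITGA6 was at 0.486 in ASO-L1, where it was called lower, and at 1.43 in SO-L1. Among targets of SRF and YAP, 7 of 22 measured genes were higher and 2 lower in ASO-L1 (median log2 ratio 0.20), and 8 of 21 were higher and 0 lower in SO-L1 (0.46). CNN1, a smooth muscle calponin, had 447 CPM in ASO-L1 members against 33.9 in ASO-L1 comparison cells, and 206 CPM in SO-L1 members against 15.9 in SO-L1 comparison cells. ANKRD1, a classical YAP target, had 57.6 CPM in ASO-L1 members against 1.48 in ASO-L1 comparison cells, and 17.6 CPM in SO-L1 members against 0.297 in SO-L1 comparison cells. The actins ACTB and ACTG1 were not called, ACTB standing at 0.859 in ASO-L1 and 0.755 in SO-L1 and ACTG1 at 1.7 in ASO-L1 and 1.05 in SO-L1.

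Proteases of the matrix were largely higher. Of the list of matrix proteases and inhibitors, 10 of 15 measured genes were higher and 0 lower in ASO-L1 (median log2 ratio 1.55), and 9 of 14 were higher and 0 lower in SO-L1 (1.38). PLAU, the urokinase activator, differed 6.23-fold in ASO-L1 (4.88 to 8.08) and 7.27-fold in SO-L1 (4.37 to 11.96), and its receptor PLAUR 12.4-fold in ASO-L1 (9.42 to 16.7) and 2.25-fold in SO-L1 (1.22 to 3.91). The lysosomal protease CTSL differed 4.84-fold in ASO-L1 and 2.997-fold in SO-L1, TIMP1 2.72-fold in ASO-L1 and 1.64-fold in SO-L1 and MMP9 2.48-fold in ASO-L1 and 1.07-fold in SO-L1, so that TIMP1 and MMP9 were called in ASO-L1 and not in SO-L1.

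Most of the measured AP-1 components and immediate early genes were higher in each library, with exceptions. In this list, 12 of 21 measured genes were higher and 1 lower in ASO-L1 (median log2 ratio 1.42), and 14 of 19 were higher and 0 lower in SO-L1 (1.80). The ASO-L1 median was 0.70 in thinned cells and 0.81 with each cell weighted equally. JUN had 495 CPM in ASO-L1 members against 144 in ASO-L1 comparison cells, and 214 CPM in SO-L1 members against 61.7 in SO-L1 comparison cells. FOSL1, a late AP-1 partner, had 49.3 CPM in ASO-L1 members against 18.4 in ASO-L1 comparison cells, and 41.9 CPM in SO-L1 members against 14.5 in SO-L1 comparison cells, or 2.68-fold in ASO-L1 (2.36 to 3.06) and 2.88-fold in SO-L1 (2.35 to 3.51), and FOSL2 differed 9.04-fold in ASO-L1 (6.39 to 13.2) and 17.6-fold in SO-L1 (10.9 to 29.1). FOSL1 fell under the 2-fold limit in ASO-L1 in thinned cells (log2 ratio 0.67), with each cell weighted equally (0.81) and without barcodes present in both libraries (0.68). FOS differed between libraries, at 0.626 (0.524 to 0.748) in ASO-L1 and 9.69 (6.92 to 13.6) in SO-L1, a difference that was not tested. ATF3, which is both an AP-1 partner and a stress gene, had 167 CPM in ASO-L1 members against 42.9 in ASO-L1 comparison cells, and 268 CPM in SO-L1 members against 18.2 in SO-L1 comparison cells.

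Genes of stress pathways were higher in part. For the integrated stress response, 11 of 25 measured genes were higher and 1 lower in ASO-L1 (median log2 ratio 0.90), and 14 of 25 were higher and 0 lower in SO-L1 (1.30). DDIT3, the CHOP factor, had 332 CPM in ASO-L1 members against 73.6 in ASO-L1 comparison cells, and 352 CPM in SO-L1 members against 53.3 in SO-L1 comparison cells, the kinase-like TRIB3 differed 4.12-fold in ASO-L1 and 9.69-fold in SO-L1 and the chaperone HSPA5 2.11-fold in ASO-L1 and 4.64-fold in SO-L1, while ASNS was at 1.14 in ASO-L1 and 2.48 in SO-L1. In the heat shock list, 8 of 14 measured genes were higher and 0 lower in ASO-L1 (median log2 ratio 1.09), and 7 of 14 were higher and 0 lower in SO-L1 (0.91). HSPA1A differed 6.52-fold in ASO-L1 (5.97 to 7.13) and 9.35-fold in SO-L1 (8.43 to 10.4) and HSPB1 4.48-fold in ASO-L1 (4.35 to 4.61) and 2.99-fold in SO-L1 (2.88 to 3.1). For p53 targets, 6 of 29 measured genes were higher and 3 lower in ASO-L1 (median log2 ratio −0.08), and 13 of 29 were higher and 0 lower in SO-L1 (0.87). CDKN1A, the cell cycle inhibitor p21, had 115 CPM in ASO-L1 members against 54.7 in ASO-L1 comparison cells, and 156 CPM in SO-L1 members against 53.1 in SO-L1 comparison cells, or 2.1-fold in ASO-L1 (1.95 to 2.26) and 2.94-fold in SO-L1 (2.65 to 3.26). The ASO-L1 log2 ratio of CDKN1A was under the 2-fold limit against all other low-mitochondrial cells (0.74), in thinned cells (0.59), with each cell weighted equally (0.84) and without shared barcodes (0.91). GADD45A differed 2.89-fold in ASO-L1 and 7.96-fold in SO-L1 and GADD45B 3.77-fold in ASO-L1 and 9.54-fold in SO-L1, whereas TNFRSF10B was at 0.442 in ASO-L1 and 1.95 in SO-L1 and MDM2 at 1.03 in ASO-L1 and 2.09 in SO-L1. Of autophagy and lysosome genes, 5 of 19 measured genes were higher and 0 lower in ASO-L1 (median log2 ratio 0.82), and 6 of 19 were higher and 0 lower in SO-L1 (0.54), with the autophagy receptor SQSTM1 higher, 4.13-fold in ASO-L1 and 3.68-fold in SO-L1.

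The pathways of the rule genes themselves had few measured genes, and their counts are not read as a difference from all genes. Over all genes tested, 10.3% were higher and 17.4% lower in ASO-L1 members. In SO-L1 members these shares were 9.18% and 6.04%. Of the IL-10 family of cytokines and receptors, without IL24, 1 of 7 measured genes were higher and 0 lower in ASO-L1 (median log2 ratio 0.90), and 0 of 5 were higher and 0 lower in SO-L1 (0.28). Over all settings tried, the median lay between 0.11 and 0.98 in ASO-L1 and between −0.26 and 0.98 in SO-L1. IL20RB, a chain of the IL24 receptors, had 9.06 CPM in ASO-L1 members against 8.14 in ASO-L1 comparison cells, and 7.35 CPM in SO-L1 members against 6.07 in SO-L1 comparison cells, ratios of 1.11 in ASO-L1 and 1.21 in SO-L1, neither of them called. The partner chains IL20RA and IL22RA1 had 4 and 17 UMIs in ASO-L1 members and 2 and 8 in SO-L1 members, and the neighbouring cytokines IL19 and IL20 had 24 and 23 in ASO-L1 and 4 and 1 in SO-L1. For the prostanoid pathway, without PTGES, 3 of 11 measured genes were higher and 2 lower in ASO-L1 (median log2 ratio −0.33), and 0 of 9 were higher and 1 lower in SO-L1 (0.03). PTGS2, the inducible cyclooxygenase that feeds PTGES, had 20 UMIs in ASO-L1 members and 12 in comparison cells, and 0 and 7 in SO-L1. HPGD, which breaks prostaglandin E2 down, was at 0.285 of the comparison level in ASO-L1 (0.264 to 0.308) and 0.435 in SO-L1 (0.369 to 0.509). Of the insulin-like growth factor binding proteins and their partners, without IGFBP6, 1 of 8 measured genes were higher and 2 lower in ASO-L1 (median log2 ratio −0.45), and 1 of 8 were higher and 1 lower in SO-L1 (0.24), with IGFBP4 the gene called higher, 5.23-fold in ASO-L1 and 5.01-fold in SO-L1. The ASO-L1 median changed sign in thinned cells, to 0.48. TM4SF1, an L6 relative of TM4SF19, had 5.49 CPM in ASO-L1 members against 0.269 in ASO-L1 comparison cells, and 48.3 CPM in SO-L1 members against 0.363 in SO-L1 comparison cells.

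Secreted inflammatory factors were few. Of that list, 5 of 9 measured genes were higher and 0 lower in ASO-L1 (median log2 ratio 1.29), and 3 of 5 were higher and 0 lower in SO-L1 (1.96). Against all other low-mitochondrial cells the medians were 0.32 in ASO-L1 and 0.98 in SO-L1. IL11 had 40.5 CPM in ASO-L1 members against 2.62 in ASO-L1 comparison cells, and 26.2 CPM in SO-L1 members against 1.52 in SO-L1 comparison cells, or 15.5-fold in ASO-L1 (11.3 to 21.8) and 17.3-fold in SO-L1 (11.9 to 25.4), and was held by 63.3% of ASO-L1 and 35.3% of SO-L1 members. The growth factor HBEGF was at 2.96 in ASO-L1 and 4.57 in SO-L1, and VEGFA at 2.45 in ASO-L1 and 3.9 in SO-L1. IL1B and CSF2 had 0 UMIs in the members of both libraries, and CXCL8 had 3 and 0. Of NF-kB targets, 5 of 13 measured genes were higher and 0 lower in ASO-L1 (median log2 ratio 0.17), and 3 of 11 were higher and 0 lower in SO-L1 (0.74). Of interferon response genes, 11 of 22 measured genes were higher and 5 lower in ASO-L1 (median log2 ratio 0.44), and 11 of 21 were higher and 4 lower in SO-L1 (1.01). ISG15 had 449.7 CPM in ASO-L1 members against 95.6 in ASO-L1 comparison cells, and 949 CPM in SO-L1 members against 91.1 in SO-L1 comparison cells, and IFI27 differed 12.2-fold in ASO-L1 and 13.9-fold in SO-L1, while the membrane proteins IFITM1, IFITM2, IFITM3 and BST2 were lower in both libraries, with ratios between 0.224 and 0.494. With members holding at least 4 of the 6 genes, the median of the interferon list in ASO-L1 was −0.15. IFIT2, called higher, came from 0.927% of ASO-L1 members and 4.71% of SO-L1 members.

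Pluripotency genes were lower in members of both libraries. Of the general pluripotency list, 0 of 21 measured genes were higher and 15 lower in ASO-L1 (median log2 ratio −1.61), and 0 of 21 were higher and 16 lower in SO-L1 (−1.45). POU5F1 had 444 CPM in ASO-L1 members against 942 in ASO-L1 comparison cells, and 592 CPM in SO-L1 members against 1029 in SO-L1 comparison cells, or 0.471 of the comparison level in ASO-L1 (0.461 to 0.481) and 0.576 in SO-L1 (0.549 to 0.603), so it was called in ASO-L1 and missed the 2-fold limit in SO-L1. SOX2 had 49.2 CPM in ASO-L1 members against 231 in ASO-L1 comparison cells, and 129 CPM in SO-L1 members against 291 in SO-L1 comparison cells, or 0.213 of the comparison level in ASO-L1 (0.201 to 0.225) and 0.444 in SO-L1 (0.401 to 0.491). NANOG had 21.9 CPM in ASO-L1 members against 67.04 in ASO-L1 comparison cells, and 21.1 CPM in SO-L1 members against 59.7 in SO-L1 comparison cells, or 0.327 of the comparison level in ASO-L1 (0.298 to 0.358) and 0.353 in SO-L1 (0.272 to 0.451). TERF1, a telomere protein abundant in pluripotent cells, had the lowest ratio of the list in ASO-L1, with 0.0778 in ASO-L1 and 0.206 in SO-L1, and GDF3, a growth factor of pluripotent cells, the lowest in SO-L1, with 0.118 in ASO-L1 and 0.173 in SO-L1. DNMT3B, a DNA methyltransferase, was at 0.127 in ASO-L1 and 0.259 in SO-L1, DPPA4 at 0.422 in ASO-L1 and 0.359 in SO-L1, and the NODAL inhibitor LEFTY2 at 0.556 in ASO-L1 and 0.241 in SO-L1. Under the 2-fold limit in single alternatives were POU5F1 in ASO-L1 (log2 ratio −0.96 against all other low-mitochondrial cells and −0.97 with each cell weighted equally), DPPA4 in ASO-L1 (−0.99 without shared barcodes) and SOX2 in SO-L1 (−0.79 with each cell weighted equally). ZFP42 was not called, at 1.26 in ASO-L1 and 1.54 in SO-L1. POU5F1 remained detectable in 98.1% of ASO-L1 and 96.5% of SO-L1 members.

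Naive and primed markers did not move as blocks. Of primed markers, 3 of 19 measured genes were higher and 12 lower in ASO-L1 (median log2 ratio −1.87), and 3 of 18 were higher and 8 lower in SO-L1 (−0.90). Over all settings tried, the median lay between −2.04 and −0.79 in ASO-L1 and between −1.01 and −0.83 in SO-L1. VIM, which primed cells share with mesenchyme, had 1682 CPM in ASO-L1 members against 505 in ASO-L1 comparison cells, and 849 CPM in SO-L1 members against 294 in SO-L1 comparison cells. Of naive markers, 9 of 23 measured genes were higher and 5 lower in ASO-L1 (median log2 ratio 0.49), and 9 of 23 were higher and 5 lower in SO-L1 (0.68). ALPG, a placental-type alkaline phosphatase, had 1083 CPM in ASO-L1 members against 102 in ASO-L1 comparison cells, and 1437 CPM in SO-L1 members against 117 in SO-L1 comparison cells, or 10.6-fold in ASO-L1 (10.1 to 11.2) and 12.3-fold in SO-L1 (11.8 to 12.9), KLF4 differed 3.27-fold in ASO-L1 and 5.24-fold in SO-L1, and DPPA5 was at 0.162 in ASO-L1 and 0.35 in SO-L1. Of metallothioneins, which bind zinc, 0 of 9 measured genes were higher and 6 lower in ASO-L1 (median log2 ratio −1.14), and 0 of 9 were higher and 5 lower in SO-L1 (−1.14). MT1F was at 0.187 in ASO-L1 and 0.23 in SO-L1, whereas MT2A missed the 2-fold limit in both libraries, at 0.577 in ASO-L1 and 0.574 in SO-L1. Although the rule removed cells with ZSCAN4, TPRX1 or DUXB, other 8-cell genes were measured: 4 of 10 measured genes were higher and 0 lower in ASO-L1 (median log2 ratio 0.80), and 5 of 7 were higher and 0 lower in SO-L1 (2.31). Over all settings tried, the median lay between 0.25 and 0.92 in ASO-L1 and between 1.71 and 3.57 in SO-L1. CCNA1 had 286 CPM in ASO-L1 members against 48.8 in ASO-L1 comparison cells, and 492 CPM in SO-L1 members against 41.4 in SO-L1 comparison cells and KHDC1L 106 CPM in ASO-L1 members against 13.8 in ASO-L1 comparison cells, and 93.3 CPM in SO-L1 members against 18.8 in SO-L1 comparison cells, while LEUTX and DUXA had 0 UMIs in SO-L1 members.

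Markers of other cell types were present in part, and each list described here had genes at or near 0 UMIs. Of the trophectoderm list, 7 of 12 measured genes were higher and 2 lower in ASO-L1 (median log2 ratio 1.63), and 6 of 10 were higher and 2 lower in SO-L1 (1.81), and it summed 2695 CPM in ASO-L1 members against 802 in comparison cells, and 2902 against 794 in SO-L1. The genes called higher in ASO-L1 were KRT7, KRT8, KRT18, KRT19, CLDN4, CCR7 and GATA2: KRT8 differed 3.58-fold in ASO-L1 and 3.19-fold in SO-L1, KRT18 3.33-fold in ASO-L1 and 4.53-fold in SO-L1 and KRT7 8.85-fold in ASO-L1 and 8.28-fold in SO-L1. GATA3, a defining trophectoderm factor, had 23 and 1 UMIs in members of ASO-L1 and SO-L1, TFAP2C was at 0.471 in ASO-L1 and 0.453 in SO-L1, and CDX2, HAND1, CGA and CGB5 had 0 UMIs in SO-L1 members. Of amnion markers, 2 of 10 measured genes were higher and 3 lower in ASO-L1 (median log2 ratio −0.49), and 1 of 7 were higher and 2 lower in SO-L1 (0.47), and they summed 235 CPM in ASO-L1 members against 381 in comparison cells, and 192 against 339 in SO-L1. Of fibroblast markers, 3 of 8 measured genes were higher and 1 lower in ASO-L1 (median log2 ratio 0.37), and 3 of 8 were higher and 1 lower in SO-L1 (0.08), and they summed 1989 CPM in ASO-L1 members against 839.6 in comparison cells, and 1137 against 596 in SO-L1, with COL1A1 higher, 3.84-fold in ASO-L1 and 5.03-fold in SO-L1 and DCN and DPT at 0 in members of both libraries. Of macrophage markers, 3 of 6 measured genes were higher and 1 lower in ASO-L1 (median log2 ratio 1.26), and 1 of 2 were higher and 0 lower in SO-L1 (2.78), and they summed 40.4 CPM in ASO-L1 members against 10.5 in comparison cells, and 24.3 against 3.5 in SO-L1, with CSF1R higher, 17.03-fold in ASO-L1 and 66.9-fold in SO-L1 and C1QA and C1QB at 0. Of endothelial markers, 3 of 7 measured genes were higher and 1 lower in ASO-L1 (median log2 ratio 0.94), and 1 of 4 were higher and 1 lower in SO-L1 (0.25), and they summed 45.96 CPM in ASO-L1 members against 59.6 in comparison cells, and 54.6 against 72.0 in SO-L1. Of mesoderm markers, 4 of 7 measured genes were higher and 1 lower in ASO-L1 (median log2 ratio 1.25), and 2 of 4 were higher and 1 lower in SO-L1 (0.32), and they summed 310.0 CPM in ASO-L1 members against 93.0 in comparison cells, and 85.6 against 35.5 in SO-L1, with TWIST1 higher, 2.87-fold in ASO-L1 and 4.27-fold in SO-L1. The median ratio changed sign under at least 1 alternative for the mesoderm and endothelial lists in both libraries. It also did so for the amnion, macrophage and fibroblast lists in SO-L1, so no direction is read from any of these lists. The part of cells of another type in the results was not tested.

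**Figure D3:**
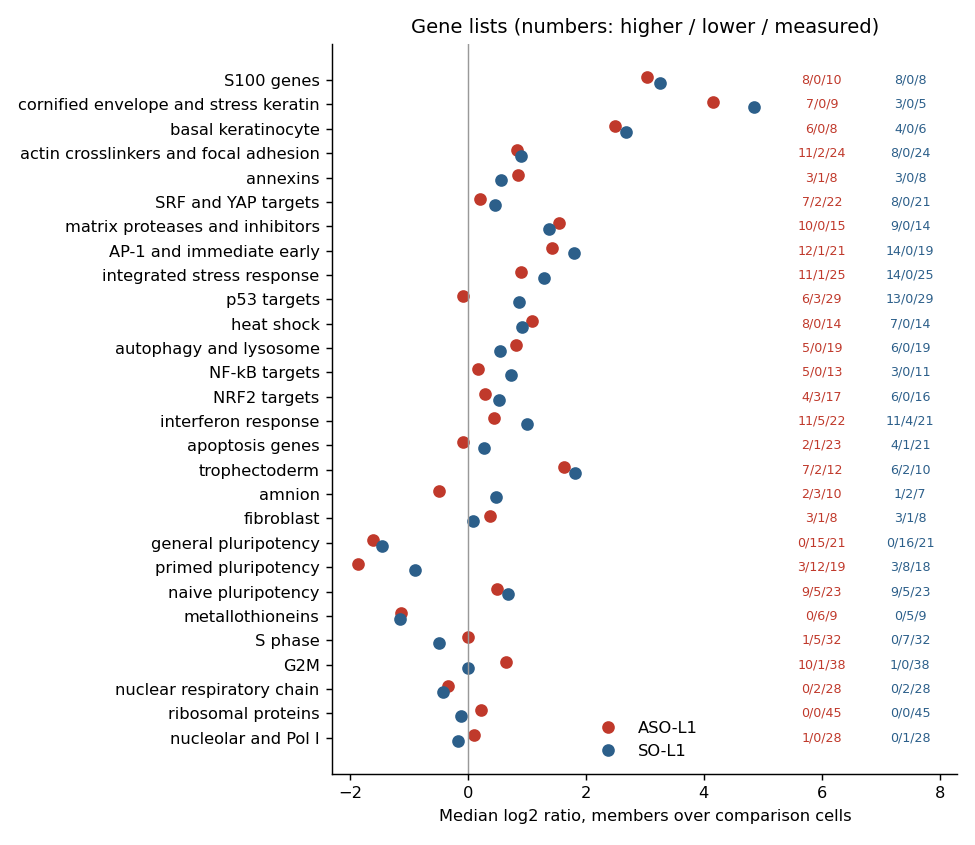
Points give the median log2 ratio of members over comparison cells (x axis) for the measured genes of 28 lists, rule genes left out, in ASO-L1 (upper point) and SO-L1 (lower point), with the numbers of genes called higher, called lower and measured at the right. S100, cornified and keratinocyte lists lie above 2 and general pluripotency below −1 in both libraries, while ribosomal protein genes lie between −0.2 and 0.3 with no gene called.

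Of S phase genes, 1 of 32 measured genes were higher and 5 lower in ASO-L1 (median log2 ratio −0.01), and 0 of 32 were higher and 7 lower in SO-L1 (−0.49). Of G2M genes, 10 of 38 measured genes were higher and 1 lower in ASO-L1 (median log2 ratio 0.65), and 1 of 38 were higher and 0 lower in SO-L1 (−0.01). The G2M median lay between 0.25 and 0.72 in ASO-L1 and between −0.35 and 0.02 in SO-L1 over all settings tried. Of all genes tested, 10.3% were higher in ASO-L1 members and 6.04% were lower in SO-L1 members. The difference between the libraries was not tested. Of 28 nuclear genes of the respiratory chain, 0 were higher and 2 lower in each library (medians −0.34 in ASO-L1 and −0.42 in SO-L1). Of 45 ribosomal protein genes none was called in either library. The nucleolar protein NCL had 765 CPM in ASO-L1 members against 835 in ASO-L1 comparison cells, and 450.0 CPM in SO-L1 members against 699.7 in SO-L1 comparison cells, ratios of 0.916 in ASO-L1 and 0.643 in SO-L1, neither of them called.

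Members differed among themselves along the number of rule genes they held. This number is the rule's own count. S100A6, CCR7, SYN3 and AASS were named from members against cells with 0 of the genes. Their difference between 0 genes and 3 or more therefore restates that choice and supports nothing. Over cells with 0, 1, 2, 3, 4, 5 and 6 of the genes, S100A6 stood at 88.2, 283, 691, 1289.8, 1112, 1734 and 2321 CPM in ASO-L1. CCR7 stood at 7.67, 14.8, 56.3, 127, 196, 275 and 274. SOX2 ran the other way, at 231, 213, 150.1, 82.4, 53.7, 39.5 and 31.6, and POU5F1 at 942, 879, 738, 526, 473, 428 and 373. SYN3 stood in ASO-L1 at 236, 149, 72.1, 34.2, 18.4, 22.2 and 18.6 and AASS at 315, 238, 143, 58.1, 33.01, 22.3 and 22.7. SOX2, POU5F1, SYN3 and AASS in ASO-L1 had made most of their decline by 3 genes, while CCR7 went on to higher levels in cells with 5 and 6. In SO-L1, with 2 cells holding all 6 genes, S100A6 stood at 89.9, 228, 561, 1704, 2267, 2493 and 3639.7 and SOX2 at 291, 265, 197, 174, 84.5, 57.6 and 17.9. UMIs per cell moved with this number in ASO-L1, where the median was 21396 at 0 genes, 42333.5 at 3 and 65451.5 at 6, and its part in the levels was not tested.

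Members with and without IL24, and with and without IGFBP6, were compared, shown with genes chosen after their values were seen. IL24 and IGFBP6 are themselves rule genes. A member without one of them had to hold 3 or more of the remaining rule genes, while a member with it needed fewer. The rule thus set different demands on members with and without the gene, which pairing for UMIs does not remove. The part of this in the values below was not tested. In ASO-L1, 437 members held IL24 and 318 did not. Paired for UMIs (309 each), members with IL24 had 39.5 CPM of KRT75 against 4.24 without it, and 14.5 of DHRS9, a retinol dehydrogenase, against 1.43. IFIT2 had the largest ratio, 14.3 against 0.229, from few cells. They had less LEFTY1, 50.3 against 209, less KHDC3L, 2.27 against 22.1, and less CLDN3, 1.65 against 21.2. Members with IGFBP6, 466 of 755, had more of the LIM proteins CRIP1, 459 against 33.2 CPM, and CRIP2, 51.7 against 5.72, and of EMP1, 33.4 against 2.55. IFIT2 was again the first by ratio, 19.2 against 0.386. They had less DHRS9, 5.62 against 18.8. In SO-L1, members with IL24 (25 cells each after pairing) had more RRAD, 323 against 63.7 CPM, and KRT17, 257 against 52.3, and less CRYAB, 49.9 against 223. In SO-L1, CRIP1 also stood higher with IGFBP6, at 894 against 216 CPM in 26 cells each.

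Members were set beside 2 other ASO-L1 classes with 3 or more of the 6 genes, low-mitochondrial cells with an 8C UMI (329 cells) and ordinary cells (467 cells). Ordinary cells with an 8C UMI were not left out. Against ordinary cells, mitochondrial share and 8C status therefore cannot be told apart. Against the cells with an 8C UMI, 180 of 15416 (1.17%) were higher and 365 (2.37%) lower in members. Lower ones included 8-cell genes that the rule did not name, such as FAM151A, at 2.31 CPM in members against 89.3 in 8C-UMI cells, KHDC1L, at 106 CPM in members against 739.9 in 8C-UMI cells, and CCNA1, at 286 CPM in members against 955 in 8C-UMI cells. POU5F1 was not called, 444 CPM in members against 438 in 8C-UMI cells, a ratio of 1.01 (0.989 to 1.04). KRT17, by contrast, stood at 86.7 CPM in members against 20.7 in 8C-UMI cells, a ratio of 4.2 (3.8 to 4.64), and ANKRD1 at 57.6 CPM in members against 14.6 in 8C-UMI cells.

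Ordinary cells with 3 or more of the 6 genes had mitochondrial RNA at a median of 5.82%. Their median depth was 78297 UMIs, against 56296 in all ordinary ASO-L1 cells and 54050 in ASO-L1 members. No doublet caller was applied, and the part of depth or of barcodes holding more than 1 cell was not tested. These ordinary cells held S100A6, SFN, KRT17, SOX2, TERF1 and DNMT3B at levels between those of members and of all ordinary cells. Other genes did not follow this order. ALPG was at 1083 CPM in members and 1063 in these ordinary cells. CCNA1 was at 286 against 393, KHDC1L at 106 against 200 and MT2A at 338 against 541, each higher in these ordinary cells. Against them, 637 of 15974 genes (3.99%) were higher and 686 (4.29%) lower in members. S100A6 stood at 1643 CPM in members against 803 in these ordinary cells, SFN at 707 CPM in members against 235 in them and KRT17 at 86.7 CPM in members against 13.4 in them. SOX2 stood at 49.2 CPM in members against 141 in them, TERF1 at 49.4 CPM in members against 274 in them and DNMT3B at 36.4 CPM in members against 181 in them. In all ordinary ASO-L1 cells, S100A6 was at 120.1 CPM, SFN at 34.5, KRT17 at 2.29, SOX2 at 275, TERF1 at 651 and DNMT3B at 422 CPM.

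Members of the 2 libraries were also set side by side. Of 14505 genes tested, 1179 (8.13%) were higher and 2643 (18.2%) lower in ASO-L1 members than in SO-L1 members, with a median log2 ratio of −0.08. Of the higher genes, 981 were tested between comparison cells and 213 were higher there too (median log2 ratios 1.27 in members, 0.63 in comparison cells). Of the lower genes, 2525 were tested there and 141 were lower too (−1.56 and −0.33). The genes and lists of this paragraph are given for members only, so shifts of the whole library are not separated. Genes higher in ASO-L1 members included CER1, a secreted inhibitor of NODAL and BMP, with 197 CPM in ASO-L1 members against 16.3 in SO-L1 members, a ratio of 12.1 (9.17 to 16.2). PLAUR had 43.4 CPM in ASO-L1 members against 5.11 in SO-L1 members, TAGLN, a smooth muscle actin-binding protein, 365 CPM in ASO-L1 members against 61.4 in SO-L1 members, and the ubiquitin-conjugating enzyme UBE2C 389 CPM in ASO-L1 members against 77.98 in SO-L1 members. MYL2, a myosin light chain, and KRT6A had 0 UMIs in SO-L1 members and were at least 10.03-fold and 5.6-fold higher in ASO-L1 members against a floor of 3 UMIs. SOX18 and HEY1 had 1 UMI each in SO-L1 members, with ratios of 30.97 (5.53 to 1226) and 26.5 (4.72 to 1049), and TSTD2 and KRT75 were 7.82-fold and 8.7-fold higher. Of G2M genes, 21 of 38 were higher in ASO-L1 members and 1 lower (median log2 ratio 1.14), and of S phase genes 14 of 32 were higher and 2 lower (0.79). Of p53 targets, 1 of 29 was higher and 11 lower (−0.70), and of cholesterol synthesis genes 0 of 23 were higher and 8 lower (−0.69).

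Genes lower in ASO-L1 members included genes that differed in opposite directions from the comparison cells of each library. SLC25A21, a mitochondrial carrier, had 2.39 CPM in ASO-L1 members against 21.6 in ASO-L1 comparison cells, and 103 CPM in SO-L1 members against 50.1 in SO-L1 comparison cells. ALCAM, a cell adhesion molecule, had 4.03 CPM in ASO-L1 members against 10.8 in ASO-L1 comparison cells, and 75.7 CPM in SO-L1 members against 14.5 in SO-L1 comparison cells. Both were lower than in comparison cells in ASO-L1 and higher in SO-L1. SRGAP1 had 1.41 CPM in ASO-L1 members against 45.4 in SO-L1 members, the sterol reductase DHCR7 2.67 CPM in ASO-L1 members against 53.1 in SO-L1 members, the splicing factor SYF2 6.46 CPM in ASO-L1 members against 111 in SO-L1 members and PDCD10 4.63 CPM in ASO-L1 members against 73.2 in SO-L1 members. FIGN, CIR1, IL1RAPL1 and SESTD1 had ratios between 0.0431 and 0.0601.

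Length separated the genes that were lower in ASO-L1 members. Genes were ordered by the distance between their start and end in GENCODE 29, known for 13509 of the 13614 genes tested in both libraries. Of the 3378 longest, spanning 90.4 to 2474 kb, 39.5% were lower in ASO-L1 members than in comparison cells, against 9.44% in SO-L1. Of the 3377 shortest, up to 14.3 kb, 10.9% were lower in ASO-L1 and 5.06% in SO-L1. In cells paired for UMIs the longest genes were lower in 34.1% in ASO-L1 and 5.92% in SO-L1. The median span was 103 kb for the 1975 genes lower in ASO-L1 alone, 83.2 kb for the 606 lower in both, 23.1 kb for the 624 higher in both, and 36.4 kb for all those tested. Counts here come from 3′ reads of whole gene tables, and whether reads in introns were counted was not stated in the labels or file headers.

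**Figure D4:**
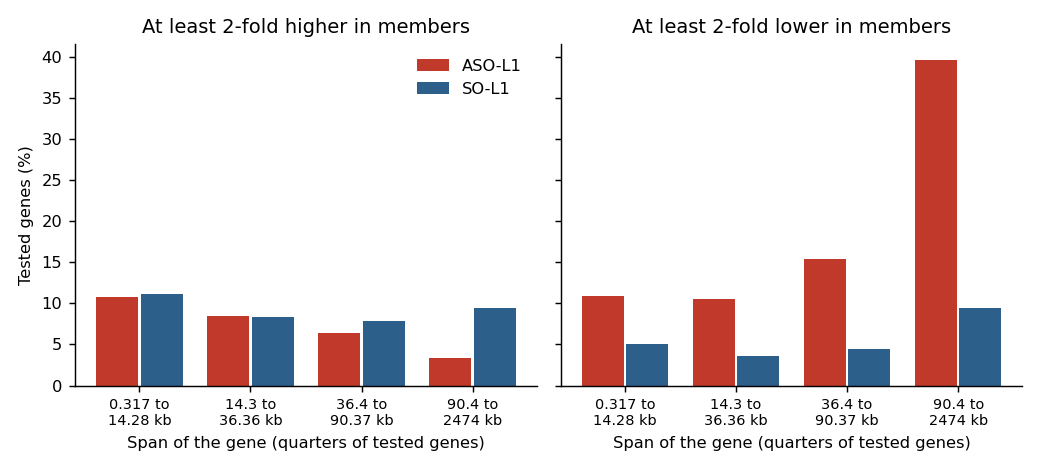
Bars give the percent of tested genes called at least 2-fold higher (left panel) or lower (right panel) in members than in comparison cells (y axis), for genes grouped by span from shortest to longest (x axis, kb), in ASO-L1 (left bar) and SO-L1 (right bar). Among the longest genes 39.5% are lower in ASO-L1 and 9.44% in SO-L1, the widest gap of the 4 groups.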

How the data were processed

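Single-cell RNA was counted in 2 libraries, ASO-L1 and SO-L1. The deposited values are raw UMI counts per gene and barcode; for making them, the submitters' processing notes name Cell Ranger 7.1.0 and the build hg38, while the annotation and the use of intronic reads were not stated. Barcodes with at least 1000 genes were kept, no doublet caller was applied, and mitochondrial genes were left out of totals. Counts were summed over the cells of a class in Python 3.11.15 (numpy 2.4.6, scipy 1.17.1, pandas 2.3.3), and ratios of CPM were given exact conditional binomial 95% intervals. These steps were tested on simulated data. A class at 0 was set to a floor of 3 UMIs. Pairing for UMIs drew equal numbers of cells within classes 0.5 log2 wide.

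Members, gene lists and named genes were chosen with earlier results of these data known. Named genes were the 15 highest and 15 lowest by the interval bound nearest to 1 in the library where it was smaller (at least 200 UMIs in each library, rule genes left out), the 10 highest and 10 lowest between members of the libraries, and for each list the genes with the largest ratios and most UMIs, plus 13 fixed genes. Other list genes, and those that divide members or set them apart from neighbouring classes, were chosen after their values were seen. Gene positions came from GENCODE 29, which holds 34616 of the 36601 gene identifiers. Results for some list genes are not reported here.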

Additional observations from a re-analysis of the deposited data

Results flagged for a closer look

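A pair of named genes was called at least 2-fold in opposite directions in the 2 libraries, members over comparison cells. For SLC25A21, the log2 ratio in ASO-L1 minus that in SO-L1 was −4.21. For ALCAM, it was −3.80. Each library is a single sample, so neither difference was tested.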

How the results depend on the processing

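The member share was 29.8% in ASO-L1 and 4.58% in SO-L1. It was 40.1% and 12.1% with at least 2 of the 6 genes, 22.6% and 2.05% with at least 4, and 7.8% and 0.34% in cells thinned to 2500 UMIs. In ASO-L1 it was 42.8% with 8C-UMI cells kept. Alternatives added after seeing the data gave 20.2% in ASO-L1 without barcodes present in both libraries and 33.4% in cells with at least 10000 UMIs. Against comparison cells, 342 genes were higher and 1082 lower in thinned ASO-L1 cells, 4335 were lower with genes from 10 UMIs, and 636 were higher and 1434 lower without barcodes present in both libraries. In SO-L1, 830 were higher and 455 lower in cells paired for UMIs, 2685 were higher with genes from 10 UMIs, and 262 were higher and 59 lower in thinned cells, which left 6 members. Between members of the libraries, 1467 genes were lower in ASO-L1 after pairing for UMIs and 1675 without barcodes present in both. These alternatives tested fewer cells or genes, or more genes with the filter of 10 UMIs. Among list medians called in a direction, the mesoderm list in ASO-L1 was at −0.064 without barcodes present in both libraries, against 1.25, and the macrophage list in SO-L1 at −0.18 with at least 4 of the 6 genes, against 2.78; the cause was not tested. Over 1077 list medians and 990 gene ratios recomputed, 68 and 5 changed sign, 19 and 0 of them with a move of over 1.5-fold. The 5 gene ratios were those of IL20RB and NCL, which were not called. The trophectoderm median lay between 0.61 and 1.73 in ASO-L1 and between 0.97 and 2.23 in SO-L1. Against all other low-mitochondrial cells 28 of 81 gene ratios moved by over 1.5-fold, and without barcodes present in both libraries 27 of 94. List values for thinned SO-L1 cells were not computed. No paired analysis was possible because each group is 1 library. With 85 members in SO-L1, genes of low level were not measurable there.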
